A study of Mus musculus with 7 samples.

Results

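The 35 genes described here form the module of class I antigen presentation and interferon response in mouse cortical plate. They were taken by symbol: every gene whose name in the deposited count and RPKM sheets equals one of 35 listed symbols was kept. All 35 were found, each in 1 row, among 53801 genes, and all 7 libraries were used. The members comprised 5 chains of class I molecules, 6 genes of peptide supply and loading, 8 transcription factors, 12 interferon-induced effectors and sensors, and 4 interferon receptor chains.

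Class I molecules carry peptides cut by the proteasome to the cell surface, where T cells and natural killer cells read them. The peptides enter the endoplasmic reticulum through the TAP transporter and are loaded with the help of tapasin, and interferons raise most of these genes through STAT and IRF proteins. In the brain, microglia and endothelium express class I genes readily, and neurons express some of them at low levels.

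RNA sequencing compared cortical plate of E14.5 embryos (4 libraries) with that of 10.5-month-old mice (3 libraries), all C57BL/6J. The embryos were Nbs1 fl/+; Nestin-Cre tg, males in replicates 1 and 4 and females in replicates 2 and 3, and replicate 1 had an earlier plug date than the others. The adults were females with CamK II-Cre tg, carrying Atr fl/+ in replicates 1 and 3 and Atr +/+ in replicate 2. Nestin-Cre acts in neural progenitors and their progeny and CamK II-Cre in forebrain excitatory neurons, so a floxed allele, where present, was a target mainly in those cells, and no library came from a mouse without Cre. All libraries at E14.5 were made with an unstranded kit and those of adults with a stranded kit. Age therefore cannot be told apart from the kit, the Cre driver or the floxed allele in any difference below.

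Depth ranged from 32533065 to 43197226 counts in the embryonic libraries and from 27327927 to 29996018 counts in the adult ones, of which mitochondrial genes took 2.26 ± 0.0624% (SD, n = 4) and 8.13 ± 0.386% (SD, n = 3). Values are counts scaled to library size by TMM factors (CPM) unless RPKM is named, and library values are listed in the order of replicates 1 to 4 at E14.5 and 1 to 3 in adults. Neural tissue was checked by 5 neuronal markers, which summed to 1787 to 2114 CPM in embryos and 6480 to 6693 CPM in adults, and by 5 progenitor markers, which summed to 959 to 1103 CPM and 54.1 to 62.7 CPM. Choroid plexus markers varied within both ages, from 179 to 678 CPM at E14.5 and from 24.99 to 463 CPM in adults, with adult replicate 3 the highest adult.

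Most of the module was higher in the adult cortical plate. Of 35 members, 28 rose and 6 fell (edgeR quasi-likelihood test, adjusted p threshold 0.05). The share of all 20800 genes tested that rose was 41.7% and that fell 44.7%. Beyond a 2-fold change, 20 members rose, against 24.6% of all genes, and 2 fell, against 22.7%. For 33 members the adult values lay entirely above or below the embryonic ones, while 85.3% of all genes tested showed such separation. The members' median log2 fold change, adult over E14.5, was 1.55, and the median over all genes tested was -0.08. All 35 passed the filter on low counts, which a gene could meet through 1 age alone, and had at least 1 count in every library. Ifit1, Psmb8, Psmb9, Rsad2 and Usp18 met it through the adult libraries alone, so for them a rise was nearly fixed in advance. They are among the rises beyond 2-fold, so the counts of rises and the members' median overstate the evidence.

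**Figure D1:**
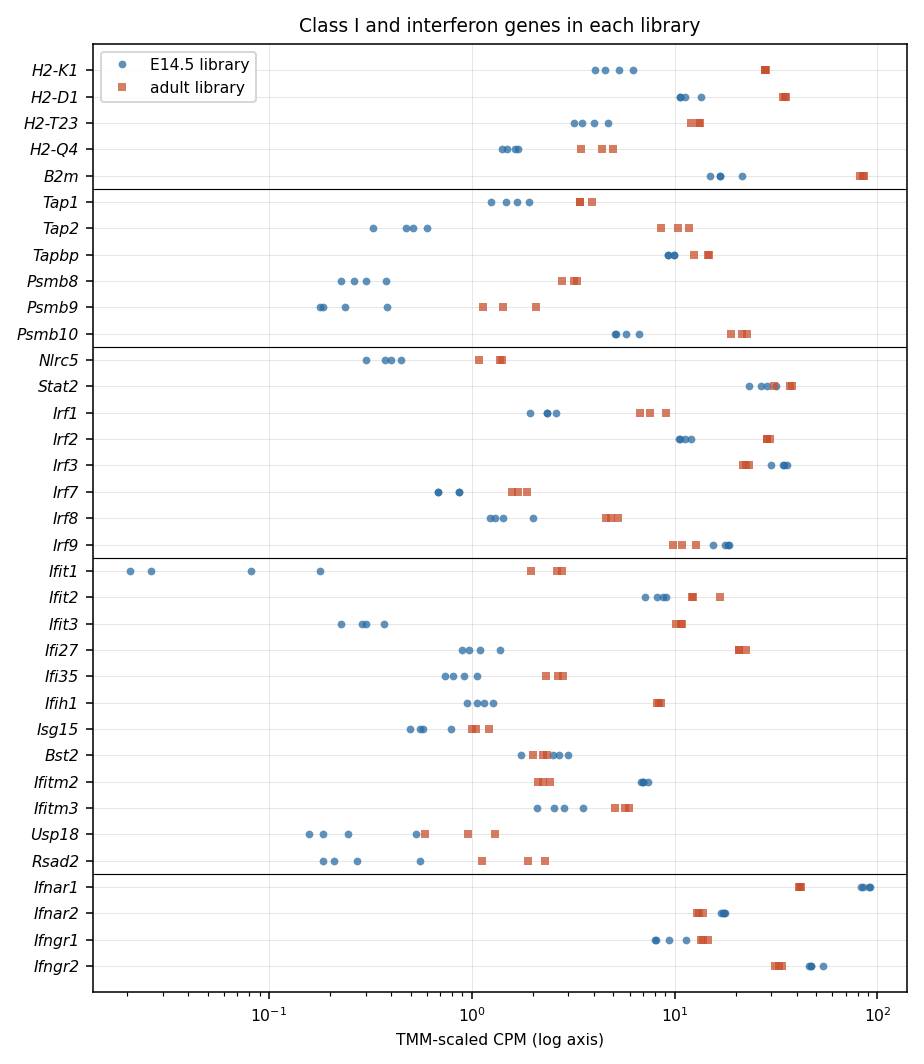
TMM-scaled CPM of each of the 35 genes (log axis) in the 4 E14.5 libraries (blue circles) and the 3 adult libraries (red squares), with lines dividing class I chains, loading genes, transcription factors, effectors and receptor chains. The ages share part of their range for Stat2 and Bst2, and adult squares lie to the left of the circles for Irf3, Irf9, Ifitm2, Ifnar1, Ifnar2 and Ifngr2.

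Microglial markers moved with this rise. All 11 microglial markers rose, and their summed level went from 43.1 to 60.1 CPM at E14.5 to 422 to 450 CPM in adults, with a median log2 fold change of 3.31. All 5 astrocyte markers rose as well, from 229 to 280 CPM to 1209 to 1292 CPM, and so did all 5 oligodendrocyte markers, from 29.5 to 32.3 CPM to 5654 to 5908 CPM. Border macrophage markers went the other way: 3 of 4 fell, from 19.2 to 32.8 CPM to 6.38 to 7.48 CPM. Of 9 endothelial markers, 3 rose and 5 fell. For comparison with these marker counts, 41.7% of all genes tested rose and 44.7% fell. Lymphocyte markers were sparse, at a summed 0.222 to 0.310 CPM at E14.5 and 2.01 to 4.39 CPM in adults, and 1 of the 8 reached the test. That marker, Cd4, rose from 27 counts over the embryonic libraries to 184 over the adult ones, a log2 fold change of 3.96 (adjusted p = 1.5e-06). It passed the low-count filter through the adult libraries alone, so for Cd4 a rise was nearly fixed in advance. Cd3e and Cd3g had 2 counts each over the adult libraries and 0 at E14.5. In bulk tissue fewer cells of a type and less RNA per cell cannot be told apart, and the part of these cell types in the module's difference was not tested.

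The letters of known interferon response elements were common in the promoters of the module. RefSeq promoter windows of 250 bases before to 50 bases after a gene's start (GRCm38.p6) were at hand for 31 members. The interferon-stimulated response element was searched as GAAA, any 2 bases, then GAAA, on both strands. Of the 31 members, 12 (38.7%) held it, against 3.99% of 27025 genes with a window. The gamma-activated site core TTCNNNGAA, which reads the same on both strands, was in 10 members (32.3%) and in 9.55% of all genes. Matches to both motifs were counted separately and may share bases, and a match describes letters only. Sequences that depart from the exact letters were not searched, so a window without a match may still hold such an element. Among the 24 rising members with a window 10 held the response element letters, and among the 6 falling members 1 did, Ifitm2. The other holder was Bst2, which passed the test in neither direction.

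The 6 windows printed here show where those letters stand in members that rose strongly (Ifit1, Ifit3), in the class I light chain (B2m), and in 3 genes with clear matches and small or opposite differences (Isg15, Bst2, Ifitm2). Each sequence is the 250 bases before the RefSeq start, 5′ to 3′ on the gene's own strand, and capitals mark the response element letters on either strand. The B2m window (chr2:122147437-122147686, plus strand) held 1 match that began 139 bases before the start. Those of Ifit1 (chr19:34640639-34640888, plus strand) began 104 and 85 bases before it, and those of Ifit3 (chr19:34583279-34583528, plus strand) 156 and 122 bases before it. Isg15 (chr4:156200819-156201068, minus strand) held 3 overlapping matches at 78, 72 and 66 bases. Bst2 (chr8:71537473-71537722, minus strand) held 2 overlapping matches at 130 and 124 bases. Ifitm2 (chr7:140955962-140956211, minus strand) held 1 match at 46 bases.
B2m: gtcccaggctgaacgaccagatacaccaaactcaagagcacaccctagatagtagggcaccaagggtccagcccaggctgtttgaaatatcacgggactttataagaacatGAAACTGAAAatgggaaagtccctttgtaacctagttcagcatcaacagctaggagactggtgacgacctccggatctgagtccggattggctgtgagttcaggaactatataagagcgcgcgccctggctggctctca
Ifit1: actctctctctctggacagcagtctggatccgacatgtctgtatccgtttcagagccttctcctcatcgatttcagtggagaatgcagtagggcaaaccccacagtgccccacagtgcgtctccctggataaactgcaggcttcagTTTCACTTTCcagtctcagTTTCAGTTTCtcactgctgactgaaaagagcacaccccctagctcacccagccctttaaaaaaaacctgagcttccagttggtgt
Ifit3: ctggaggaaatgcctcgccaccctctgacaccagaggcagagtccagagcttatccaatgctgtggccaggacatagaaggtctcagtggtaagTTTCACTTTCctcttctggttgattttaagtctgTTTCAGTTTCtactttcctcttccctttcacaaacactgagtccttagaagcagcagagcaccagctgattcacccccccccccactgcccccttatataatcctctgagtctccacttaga
Isg15: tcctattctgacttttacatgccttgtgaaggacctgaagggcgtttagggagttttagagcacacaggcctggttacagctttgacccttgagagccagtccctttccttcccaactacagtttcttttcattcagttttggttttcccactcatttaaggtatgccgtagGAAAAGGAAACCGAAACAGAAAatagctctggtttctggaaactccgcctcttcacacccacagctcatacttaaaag
Bst2: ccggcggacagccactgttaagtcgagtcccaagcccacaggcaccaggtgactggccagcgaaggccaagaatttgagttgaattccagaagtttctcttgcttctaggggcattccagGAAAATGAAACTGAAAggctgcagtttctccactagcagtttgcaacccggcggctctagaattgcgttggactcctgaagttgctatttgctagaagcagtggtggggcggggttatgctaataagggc
Ifitm2: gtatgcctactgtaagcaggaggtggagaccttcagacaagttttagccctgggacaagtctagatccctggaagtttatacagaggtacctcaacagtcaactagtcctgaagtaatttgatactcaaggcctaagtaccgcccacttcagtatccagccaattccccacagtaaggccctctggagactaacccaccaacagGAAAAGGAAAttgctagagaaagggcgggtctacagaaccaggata

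Tap1 and Psmb9 are read in opposite directions from RefSeq starts with 225 bases between them, and both rose. The stretch between their starts (chr17:34187331-34187555, given on the plus strand, that of Tap1) is shown because it lies upstream of both RefSeq starts. In GENCODE M21 Psmb9 reaches to 34187764 and Tap1 begins at 34187553, so there the genes overlap and the stretch lies within Psmb9. Their windows shared 275 bases and neither window held the response element letters.
Tap1 and Psmb9: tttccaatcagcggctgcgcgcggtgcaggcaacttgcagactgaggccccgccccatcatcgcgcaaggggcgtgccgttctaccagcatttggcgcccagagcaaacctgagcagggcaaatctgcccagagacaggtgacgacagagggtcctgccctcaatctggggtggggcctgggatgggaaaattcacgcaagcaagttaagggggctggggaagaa

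All 5 class I chains rose, each beyond 2-fold, with log2 fold changes from 1.46 to 2.47. Of all genes tested, 41.7% rose and 24.6% rose beyond 2-fold. B2m, the light chain shared by class I molecules, stood at 21.5, 16.7, 16.7 and 14.99 CPM at E14.5 and at 84.6, 86.2 and 82.1 CPM in adults. Every adult library was far above every E14.5 library. The mean went from 17.5 ± 2.80 CPM (SD, n = 4) to 84.3 ± 2.04 CPM (SD, n = 3), a log2 fold change of 2.27 ± 0.10 (SE, adjusted p = 2.4e-09).

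H2-K1, a classical heavy chain that presents peptides to CD8 T cells, was measured at 6.27, 5.32, 4.04 and 4.54 CPM at E14.5. Its adult values were 28.0, 28.1 and 28.1 CPM, so the adult libraries nearly coincided while the embryonic ones spread, with replicate 1 the highest. The adult values rest on 3 libraries with 711, 648 and 671 counts, too few to show that the gene is so constant. The log2 fold change was 2.47 ± 0.13 (adjusted p = 7.6e-09). H2-D1, the other classical heavy chain of this strain, had 13.4, 11.3, 10.6 and 10.7 CPM at E14.5 and 35.01, 35.5 and 34.4 CPM in adults, again without overlap. It rose by a log2 fold change of 1.60 ± 0.0857 (adjusted p = 1.2e-08), less than H2-K1 in this fit, and that difference between genes was not tested.

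The non-classical chains were lower in RPKM at both ages and rose as well. H2-T23, which encodes Qa-1 and is read by inhibitory receptors of natural killer cells, went from 3.85 ± 0.652 to 12.8 ± 0.727 CPM (log2 fold change 1.73 ± 0.13, adjusted p = 2.2e-07). H2-Q4, a Qa-region chain, had 1.69, 1.64, 1.42 and 1.49 CPM at E14.5 and 5.00, 3.47 and 4.39 CPM in adults. Adult replicate 2 was the lowest adult and still exceeded every embryo (log2 fold change 1.46 ± 0.15, adjusted p = 4.1e-06). Heavy chain values are uncertain as single genes because the genes are near copies. A BLAST search matched 73.5% of the H2-D1 transcript to H2-K1 at 90.6% identity, 58.2% of H2-K1 to H2-Q4 at 91.4%, 72.4% of H2-Q4 to H2-Q6 at 92.5% and 72.6% of H2-T23 to the pseudogene H2-T-ps at 95.6%. How reads with several matches were counted is not given in the sources used here.

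All 6 genes of peptide supply and loading rose, 4 of them beyond 2-fold, with a median log2 fold change of 2.28. The shares of all genes tested were 41.7% and, beyond 2-fold, 24.6%. The subunits of the peptide transporter are described first. Tap2 was barely counted in embryos, at 0.6003, 0.327, 0.473 and 0.516 CPM (82 counts over 4 libraries), and stood at 10.4, 11.8 and 8.57 CPM in adults (742 counts over 3). The mean was 21.4-fold higher in adults (log2 fold change 4.39 ± 0.18, adjusted p = 1.4e-09). Tap1 had 1.91, 1.66, 1.47 and 1.24 CPM at E14.5 and 3.42, 3.43 and 3.93 CPM in adults, so its groups were separate but closer. Its log2 fold change was 1.19 ± 0.16 (adjusted p = 4e-05), and a change beyond 2-fold was not called (adjusted p = 0.09). Exons of Gm15821 and Gm20496 on the opposite strand cover 18.5% of Tap2 exons, and an unstranded library cannot assign reads there to a strand.

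Tapbp encodes tapasin, which holds empty class I molecules at the transporter. It showed the smallest rise of the 6, from 9.94, 9.30, 9.90 and 9.33 CPM to 14.9, 14.7 and 12.5 CPM, with no overlap. The log2 fold change of 0.54 ± 0.0873 (adjusted p = 0.00014) no longer passed under total-count scaling, at 0.13 (adjusted p = 0.20). Opposite-strand exons cover 24.9% of its exons, the highest share among the 35 genes.

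The 3 immunoproteasome subunits replace constitutive ones when interferon acts on a cell and change which peptides are cut. Psmb8 stood at 0.378, 0.3001, 0.263 and 0.227 CPM in embryos and at 3.30, 3.21 and 2.80 CPM in adults, a log2 fold change of 3.40 ± 0.20 (adjusted p = 2.3e-08). Psmb9, with 40 counts over the 4 embryonic libraries, had 0.178, 0.382, 0.236 and 0.186 CPM at E14.5 and 1.14, 2.08 and 1.42 CPM in adults. Its log2 fold change was 2.67 ± 0.31 (adjusted p = 1e-05). Replicate 2 was the highest for Psmb9 within each age, and the ages did not overlap. Psmb10, the most abundant of the 3 per length, went from 5.76, 5.16, 6.69 and 5.10 CPM to 22.9, 21.6 and 19.02 CPM (log2 fold change 1.90 ± 0.11, adjusted p = 2.6e-08).

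The constitutive counterparts did not rise with them. Psmb5 fell by 0.45, Psmb6 by 1.16 and Psmb7 by 0.10 on the log2 scale (adjusted p for Psmb7 = 0.039). Ratios of immunoproteasome to constitutive subunit, taken in each library on RPKM plus 0.1, were higher in all adult libraries for every pair. The ratio of Psmb10 to Psmb7 was 10.8% at E14.5 and 42.5% in adults, that of Psmb8 to Psmb5 0.341% and 2.99%, and that of Psmb9 to Psmb6 0.211% and 1.62%. The log2 differences were 1.98, 3.13 and 2.94, larger than the spread within either age. Each ratio separated the ages fully, with an exact two-sided permutation p of 0.0571 before and after adjustment over 5 ratios. That is the smallest value 35 ways of choosing 3 of 7 libraries allow, so the design cannot pass 0.05 for a single ratio. Psmb8 and Psmb9 stood at 0.121 and 0.0757 RPKM in embryos, close to the added 0.1, and with nothing added the log2 differences were 3.88 and 3.84.

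**Figure D2:**
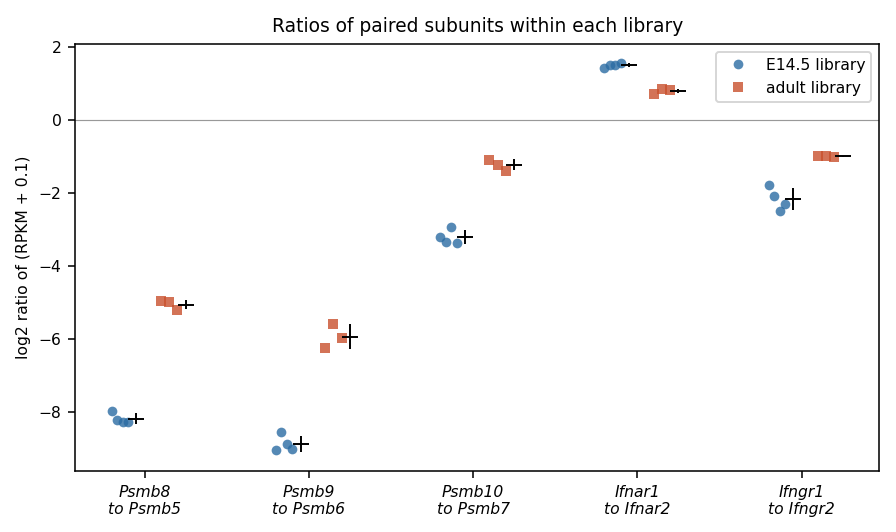
Log2 ratio of RPKM plus 0.1 for 5 pairs of subunits in each library (blue circles E14.5, red squares adult), with black lines for the mean and 1 SD of each age. The 3 immunoproteasome ratios and Ifngr1 to Ifngr2 were higher in all 3 adult libraries, and Ifnar1 to Ifnar2 was lower.

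Of the 8 transcription factors, 6 rose and 2 fell, where 41.7% of all genes tested rose and 44.7% fell. Nlrc5, the transactivator of class I promoters, was counted thinly, at 0.4002, 0.3001, 0.446 and 0.372 CPM in embryos and 1.42, 1.08 and 1.38 CPM in adults. All adults were higher (log2 fold change 1.76 ± 0.22, adjusted p = 1.5e-05). Irf1, which interferon gamma induces and which acts on class I and immunoproteasome promoters, stood at 2.60, 2.35, 1.94 and 2.35 CPM at E14.5. In adults it reached 9.05, 6.72 and 7.61 CPM, above every embryo (log2 fold change 1.75 ± 0.14, adjusted p = 3.9e-07). Irf2, which binds the same sites as Irf1 and often represses them, rose too, from 11.1 ± 0.687 to 28.9 ± 0.546 CPM (log2 fold change 1.38 ± 0.0691, adjusted p = 6.9e-09). Irf8, a factor that macrophages and microglia need, went from 2.001, 1.31, 1.23 and 1.42 CPM to 5.27, 4.86 and 4.60 CPM. Its log2 fold change of 1.71 ± 0.17 (adjusted p = 2.8e-06) stood beside the microglial marker median of 3.31.

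The interferon-regulatory factors that start the type I response moved in opposite directions. Irf3, which is present before infection and is activated by phosphorylation, had 34.3, 36.0, 30.0 and 34.7 CPM at E14.5 and 22.5, 21.7 and 23.3 CPM in adults, without overlap. It fell by 0.58 on the log2 scale (SE 0.0723, adjusted p = 1.7e-05). Irf7, which interferon itself induces, had 0.867, 0.682, 0.683 and 0.867 CPM in embryos and 1.69, 1.87 and 1.59 CPM in adults. It rose by a log2 fold change of 1.13 ± 0.18 (adjusted p = 0.00011), and a change beyond 2-fold was not called (adjusted p = 0.18).

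Irf9 and Stat2, partners in the factor that type I interferon activates, are set side by side here. Irf9 stood at 15.5, 17.8, 18.4 and 18.5 CPM at E14.5 and at 9.83, 10.9 and 12.8 CPM in adults, and every adult was lower (log2 fold change -0.65 ± 0.11, adjusted p = 0.00015). Stat2 had 23.2, 31.6, 28.6 and 26.8 CPM and 37.9, 37.0 and 30.9 CPM, so adult replicate 3 lay within the embryonic range. The log2 fold change of Stat2 was 0.36 ± 0.11 (adjusted p = 0.0082) with TMM scaling and -0.06 (adjusted p = 0.61) with total-count scaling, so its direction depends on the scaling.

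Among 12 effectors and sensors, 10 rose, 7 of them beyond 2-fold, 1 fell and 1 passed in neither direction. Of all genes tested, 41.7% rose, 24.6% rose beyond 2-fold and 44.7% fell. The IFIT family, whose proteins bind foreign RNA and block its translation, held the largest rise of the 35 genes. Ifit3 had 0.289, 0.3001, 0.368 and 0.227 CPM at E14.5, from 49 counts in all, and 10.7, 10.9 and 10.2 CPM in adults, from 768. The coefficient of variation was 19.4% in embryos and 3.52% in adults, and the adult mean was 35.9-fold higher (log2 fold change 5.16 ± 0.15, adjusted p = 6.6e-11). Ifit3 is uncertain as a single gene, since 97.4% of its transcript matched its copy Ifit3b at 97.8% identity. Ifit3b was not a member and differed in the same direction, at 0.0960 ± 0.0679 CPM and 8.77 ± 0.541 CPM (log2 fold change 6.47 ± 0.25, adjusted p = 8.5e-10). It passed the low-count filter through the adult libraries alone, so for Ifit3b a rise was nearly fixed in advance.

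Ifit1 was near the limit of counting in embryos, with 8, 3, 1 and 1 counts, or 0.178, 0.0819, 0.0263 and 0.0207 CPM. The adult libraries held 2.79, 2.65 and 1.97 CPM, all far higher. The log2 fold change was 4.93 ± 0.39 (adjusted p = 4e-07), and without E14.5 replicate 1, which held 8 of the 13 embryonic counts, it was 5.80. Ifit2 was well expressed at both ages, at 9.07, 8.76, 7.11 and 8.18 CPM in embryos and 12.4, 16.7 and 12.2 CPM in adults. Its rise was small (log2 fold change 0.73 ± 0.13, adjusted p = 0.00027) and did not pass with limma on log2(RPKM + 0.5), at 0.26 (adjusted p = 0.060).

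Ifi27, a small membrane protein gene that type I interferon induces, went from 1.38, 0.900, 0.971 and 1.09 CPM to 20.7, 22.4 and 20.8 CPM. That was a 19.6-fold difference of means, with a narrow spread in adults (log2 fold change 4.28 ± 0.13, adjusted p = 9.5e-11). Ifih1 encodes MDA5, the sensor of long double-stranded RNA, and stood at 1.07, 1.15, 0.945 and 1.28 CPM in embryos and 8.38, 8.59 and 8.15 CPM in adults. It rose by a log2 fold change of 2.91 ± 0.12 (adjusted p = 1.9e-09) with no overlap. Ifi35, an interferon-induced regulator of innate signalling, rose from 0.882 ± 0.144 to 2.61 ± 0.257 CPM (log2 fold change 1.55 ± 0.17, adjusted p = 6.8e-06).

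Rsad2 encodes viperin, an antiviral enzyme, and had 0.556, 0.273, 0.210 and 0.186 CPM at E14.5 and 1.89, 2.30 and 1.13 CPM in adults. Both ages spread widely, yet all adults were higher (log2 fold change 2.51 ± 0.37, adjusted p = 6.7e-05). Usp18, the protease that removes ISG15 and damps interferon signalling, had 0.534, 0.246, 0.158 and 0.186 CPM in embryos and 1.30, 0.954 and 0.585 CPM in adults. The highest embryo, replicate 1, nearly reached the lowest adult, replicate 3. The log2 fold change of Usp18 was 1.73 ± 0.42 (adjusted p = 0.0026). Isg15, the ubiquitin-like modifier itself, stood at 0.556, 0.791, 0.499 and 0.578 CPM and 1.22, 0.998 and 1.05 CPM, a smaller rise (log2 fold change 0.85 ± 0.22, adjusted p = 0.0036) that did not pass under total-count scaling, at 0.44 (adjusted p = 0.080). Isg15 is also uncertain, with 63.8% of its transcript matched by AC151275.1 at 95.2% identity.

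The IFITM proteins, which hinder virus entry, moved apart although their genes are neighbours. Ifitm2 had 6.83, 7.42, 6.96 and 6.96 CPM at E14.5 and 2.12, 2.26 and 2.42 CPM in adults. Every adult library was lower than every embryo, the mean was 3.10-fold higher at E14.5, and the log2 fold change of -1.63 ± 0.11 (adjusted p = 8.7e-08) was the largest fall in the module. Ifitm3 stood at 3.54, 2.86, 2.55 and 2.11 CPM in embryos and 5.07, 5.94 and 5.69 CPM in adults and rose (log2 fold change 1.01 ± 0.17, adjusted p = 0.00018). Ifitm1, a neighbour outside the module, did not pass (log2 fold change 0.35 ± 0.24, adjusted p = 0.19). Sequence likeness limits both members: 66.0% of the Ifitm2 transcript matched Gm11951 at 97.0% identity and 52.1% of Ifitm3 matched Gm6885 at 91.6%. Exons of Gm45717 on the same strand also cover 40.9% of Ifitm2 exons.

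Bst2, which encodes tetherin and holds budding viruses at the cell surface, had 2.98, 2.51, 2.70 and 1.76 CPM at E14.5 and 2.01, 2.34 and 2.26 CPM in adults. The adult libraries lay inside the embryonic range, and the log2 fold change of -0.17 ± 0.19 did not pass (adjusted p = 0.41). Under total-count scaling Bst2 was called lower in adults, at -0.59 (adjusted p = 0.016).

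Of the 4 receptor chains, 3 fell and 1 rose, where 44.7% of all genes tested fell and 41.7% rose. Ifnar1, the low-affinity chain of the type I receptor, had 83.1, 85.4, 90.8 and 92.1 CPM at E14.5 and 41.0, 42.2 and 41.4 CPM in adults. All embryos were higher and their mean was 2.11-fold that of adults (log2 fold change -1.08 ± 0.0526, adjusted p = 5.4e-09), and a change beyond 2-fold passed narrowly (adjusted p = 0.047). That 2-fold call was lost when E14.5 replicate 3, E14.5 replicate 4 or any adult library was left out, while the fall itself was not. Ifnar2, the chain that binds interferon tightly, had 17.4, 16.9, 17.7 and 17.6 CPM and 13.9, 13.2 and 13.0 CPM, a smaller fall without overlap (log2 fold change -0.38 ± 0.0673, adjusted p = 0.00028). In RPKM the ratio of Ifnar1 to Ifnar2 was 2.83 at E14.5 and 1.74 in adults, separate in all libraries (exact permutation p = 0.0571).

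The chains of the interferon gamma receptor moved in opposite directions. Ifngr1, which binds the ligand, had 11.4, 9.36, 8.06 and 7.99 CPM in embryos and 14.6, 13.4 and 13.8 CPM in adults and rose (log2 fold change 0.60 ± 0.12, adjusted p = 0.00091). Under total-count scaling that rise was 0.19 and did not pass (adjusted p = 0.20). Ifngr2, the signalling chain, had 46.2, 47.01, 53.9 and 47.1 CPM and 33.7, 31.5 and 32.6 CPM and fell (log2 fold change -0.57 ± 0.0659, adjusted p = 8.9e-06). The ratio of Ifngr1 to Ifngr2 in RPKM was 22.3% in embryos and 50.4% in adults, which is 1.17 on the log2 scale (exact permutation p = 0.0571). With nothing added to the RPKM values that difference was 1.19.

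**Figure D3:**
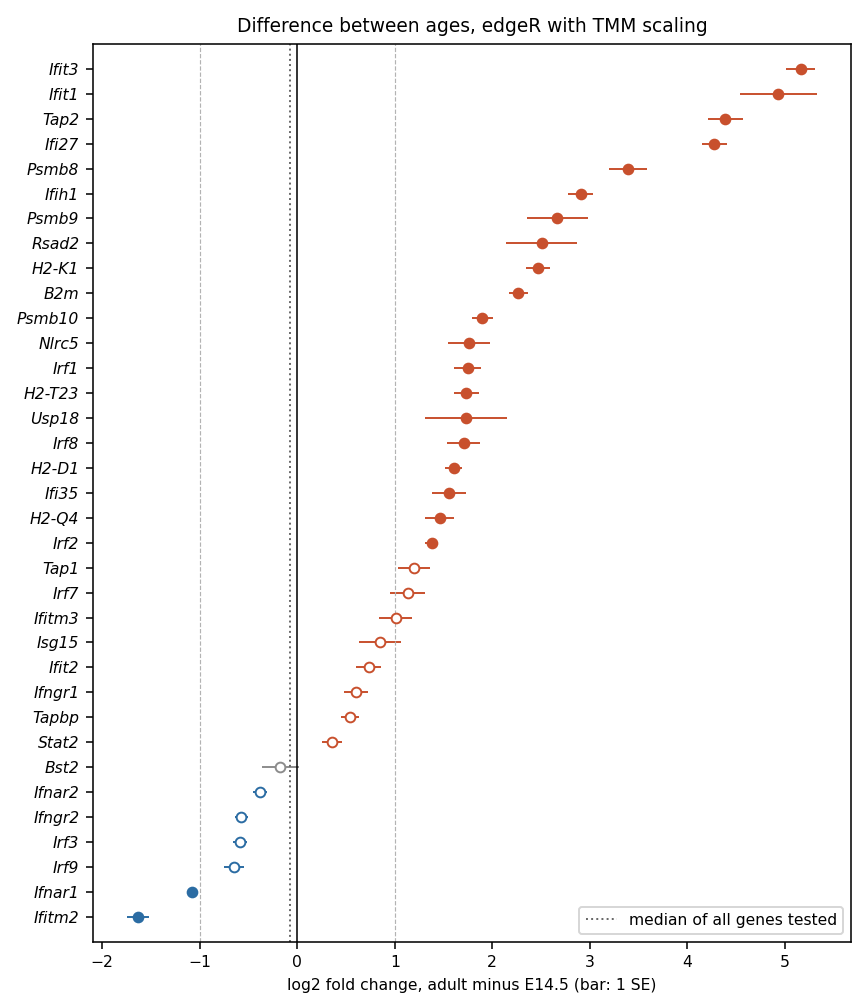
Log2 fold change of adult over E14.5 for each of the 35 genes with 1 SE (edgeR, TMM scaling), where filled points passed the test beyond 2-fold, red points rose, blue points fell and the grey point passed in neither direction. The dotted line is the median of all genes tested at -0.08, and values run from -1.63 for Ifitm2 to 5.16 for Ifit3.

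The genes that make interferon were nearly silent. Over 11 type I, II and III interferon genes, 10 counts were found in all E14.5 libraries together and 2 in all adult libraries, and none reached the test. Among 20 other genes of interferon signalling and sensing that were found, all tested, 13 rose and 2 fell, with a median log2 fold change of 0.72. The shares of all genes tested were 41.7% and 44.7%. Tlr3, the endosomal sensor of double-stranded RNA, rose from 2.32 ± 0.352 to 19.01 ± 0.275 CPM (log2 fold change 3.04, adjusted p = 6.4e-10). Socs3, a feedback inhibitor of cytokine signalling, fell from 12.5 ± 0.934 to 3.48 ± 0.230 CPM (log2 fold change -1.84, adjusted p = 2.3e-08).

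Other interferon-stimulated genes went mostly in the direction of the members. Of 33 tested of 38 listed, 25 rose and 3 fell, with a median log2 fold change of 2.28, where 41.7% of all genes rose and 44.7% fell. Some, such as Iigp1, Ifit3b and Mx2 with 11, 16 and 24 embryonic counts, passed the low-count filter through the adult libraries alone. For those a rise was nearly fixed in advance, so the count and the median overstate the evidence. Samhd1, which depletes nucleotides and restricts viruses, was the largest fall among the listed genes, from 42.6 ± 2.34 to 21.9 ± 0.677 CPM (log2 fold change -0.96, adjusted p = 5.6e-08). Of 11 other class I heavy chains tested, 9 rose and 2 fell. H2-M3, which presents formylated peptides, rose from 0.525 ± 0.223 to 3.43 ± 0.580 CPM (log2 fold change 2.67, adjusted p = 2.6e-06). Cd1d1, which presents lipids to natural killer T cells, fell from 37.4 ± 1.18 to 0.477 ± 0.230 CPM (log2 fold change -6.30, adjusted p = 3.2e-11).

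Of 12 constitutive proteasome, loading and trimming genes, 4 rose and 8 fell, with a median log2 fold change of -0.43, where 41.7% of all genes rose and 44.7% fell. Tapbpl, a relative of tapasin that edits peptides, rose from 1.84 ± 0.145 to 8.18 ± 0.665 CPM (log2 fold change 2.14, adjusted p = 1.3e-08). Psme2, an interferon-inducible subunit of the proteasome activator PA28, fell from 47.3 ± 0.992 to 18.2 ± 0.229 CPM (log2 fold change -1.38, adjusted p = 5.4e-10). Of 9 class II presentation genes tested, 8 rose and 1 fell, with a median log2 fold change of 3.70. Genes such as H2-Ob, H2-DMb2 and H2-Aa, with 3, 6 and 15 counts over the embryonic libraries, passed the low-count filter through the adult libraries alone. For these a rise was nearly fixed in advance, so the count and the median overstate the evidence. The gene that fell, Ciita, had 64 counts over the embryonic libraries and 6 over the adult ones (log2 fold change -2.16, adjusted p = 0.0062). Ciita passed the filter through the embryonic libraries alone, so its fall was likewise nearly fixed in advance. Cd74, the invariant chain of class II molecules, rose from 0.177 ± 0.124 to 3.47 ± 0.586 CPM (log2 fold change 4.22, adjusted p = 2.9e-07). Class II genes summed to 2.35 to 3.60 CPM in embryos and 20.1 to 22.9 CPM in adults; the microglial marker sums given above were higher in the same libraries, and their part was not tested.

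Per length, B2m was the most abundant transcript of the module at both ages, at 22.998 ± 3.97 RPKM in embryos and 83.1 ± 1.53 RPKM in adults. At E14.5 the receptor chains Ifnar1 (16.9 ± 0.678 RPKM) and Ifngr2 (16.6 ± 1.16 RPKM) came next and did not differ beyond their spread, followed by Ifitm2 (12.1 ± 0.413 RPKM) and Irf3 (11.1 ± 0.888 RPKM). In adults Ifi27 (12.3 ± 0.482 RPKM) stood second, up from rank 20 in embryos, ahead of H2-D1 (11.5 ± 0.111 RPKM), Psmb10 (10.5 ± 0.931 RPKM) and H2-K1 (9.12 ± 0.0512 RPKM). The adult values of H2-D1 (11.38 to 11.61 RPKM) lay just above those of Psmb10 (9.52 to 11.36 RPKM). Ifit3 moved from rank 27 to rank 10. The lowest level in embryos was that of Ifit1 at 0.0329 RPKM and the lowest in adults that of Nlrc5 at 0.129 RPKM.

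Among the embryos, replicate 1 was the highest of the 4 libraries for 19 of 35 members (54.3%), against 27.5% of all genes tested. Replicates 2, 3 and 4 were the highest for 5, 5 and 6 members. The ratio of replicate 1 to the mean of the other 3 had a median of 1.13 over the members and 0.998 over all genes tested. It was largest for Ifit1 (4.14), Usp18 (2.72) and Rsad2 (2.49) and was 1.51 for Irf8 and 1.44 for Psmb8. Replicate 1 was the lowest of the 4 for 6 members. In that library microglial markers summed to 60.1 CPM (43.1 to 50.2 in the others), border macrophage markers to 32.8 CPM (19.2 to 27.7) and pericyte and meningeal markers to 307 CPM (192 to 231). Endothelial markers (274 CPM, 216 to 237 in the others), blood cell markers (817 CPM, 567 to 711) and astrocyte markers (280 CPM, 229 to 266) were also highest there. Replicate 1 also has the earlier plug date, and the part of these in its higher values was not tested. Without it, 28 members rose and 6 fell, and the mean of Usp18 was 4.82-fold higher in adults rather than 3.37-fold.

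**Figure D4:**
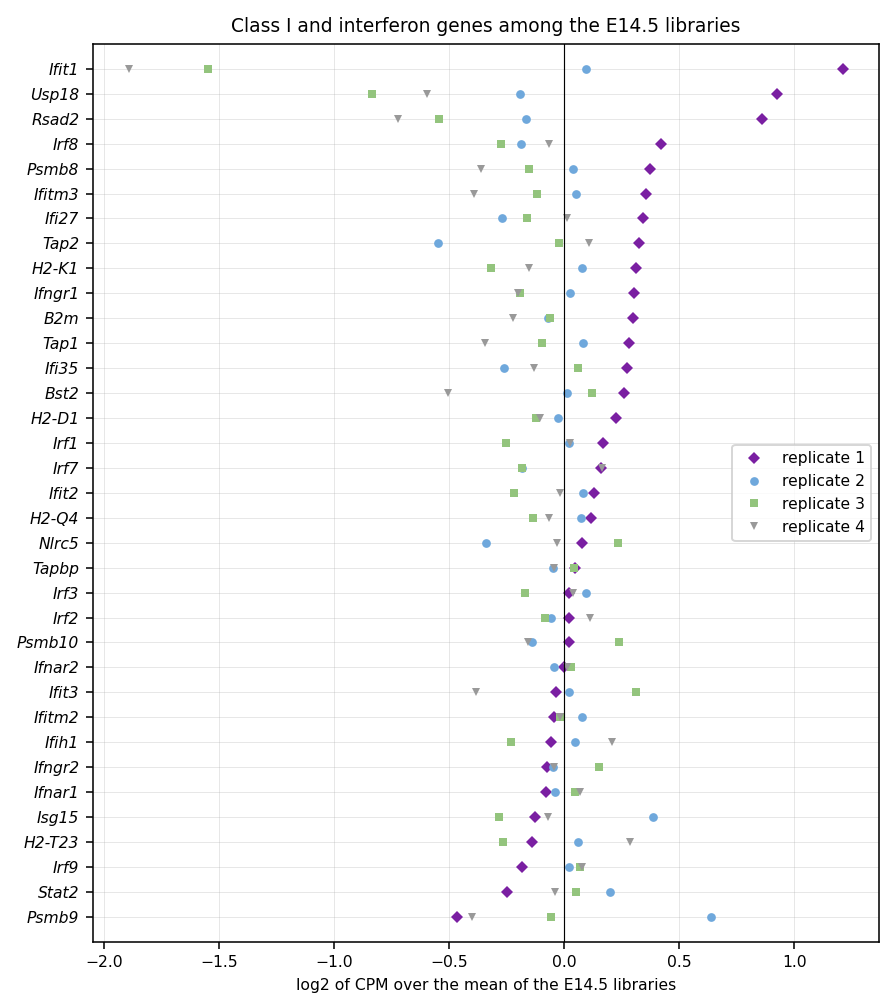
Log2 of each E14.5 library's CPM over the mean of the 4 E14.5 libraries, for the 35 genes ordered by the value of replicate 1 (purple diamonds). Replicate 1 lies right of the other libraries for 19 genes, with Ifit1, Usp18 and Rsad2 at the top.

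In adults, replicate 2, the Atr +/+ library, was the highest of the 3 for 16 members, the lowest for 8 and between the others for 11. It was thus the highest for 45.7% of members, against 29.9% of all genes tested, and replicate 1 was the highest for 14 members (40.0%, against 36.3%). With 1 such library, its genotype could not be tested. The coefficient of variation in adults was 0.259% for H2-K1, 37.7% for Usp18, 33.5% for Rsad2 and 31.2% for Psmb9, and in embryos it was 19.3%, 61.5%, 55.7% and 38.5% for the same genes. In adults Usp18 and Rsad2 thus varied most of the 35 genes, and in embryos only Ifit1, whose level rests on 13 counts, varied more. The narrow adult spread of H2-K1 rests on 3 libraries and does not measure how constant the gene is.

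Neighbouring members moved together at some places in the genome and apart at others. On chromosome 17 (GRCm38 coordinates from GENCODE M21), all 9 members rose, from Tapbp (33915899 to 33929292) and H2-K1 (33996017 to 34000347) past H2-D1 (35262730 to 35267499) and H2-Q4 (35379617 to 35385290) to H2-T23 (36029773 to 36032855), with Psmb9, Tap1, Psmb8 and Tap2 between 34181987 and 34216321. On chromosome 16 the receptor genes Ifnar2 (91372783 to 91405589), Ifnar1 (91485238 to 91507441) and Ifngr2 (91547072 to 91565623) all fell. Il10rb, a receptor chain gene of the same cluster that is not a member, rose from 2.30 ± 0.251 to 5.10 ± 0.0226 CPM (log2 fold change 1.14, adjusted p = 4.6e-06). All 3 IFIT genes rose on chromosome 19, where Ifit2 spans 34550694 to 34576419, Ifit3 34583531 to 34588731 and Ifit1 34640871 to 34650009. On chromosome 7 Irf7 and Ifitm3 rose while Irf3 and Ifitm2 fell. Opposite-strand exons overlapped 12 members in part, of which 11 rose and 1 fell. Of the 23 members with no such overlap, 17 rose, 5 fell and 1 passed in neither direction, with a median log2 fold change of 1.38.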

How the data were processed

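RNA from 7 cortical plate libraries was sequenced, and the submitters' processing notes list featureCounts 1.5.0, TopHat2 2.1.0 and bcl2fastq 1.8.4, with GRCm38 as the build. For each gene the authors deposited raw read counts, RPM values (scaled to the library total) and RPKM values (also divided by gene length). The deposited RPM values were not used further. Not given in the sources used here are the release of the annotation, the strand setting and how multiply matching reads were treated. Per the labels' protocols, the TruSeq RNA v2 kit was used at E14.5 and the TruSeq stranded mRNA kit in adults. Sex, plug date or genotype set apart the replicates of an age, except E14.5 replicates 2 and 3 and adult replicates 1 and 3. The labels do not say whether the replicates within those pairs are separate animals. The spread behind each p-value is that among these samples and may be technical in part.

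All genes were fitted together on their counts in edgeR 4.0.16 under R 4.3.3 (quasi-likelihood F test, TMM factors, filterByExpr with minimum count 10 and minimum total 15, age as the only term, all 7 libraries). Benjamini-Hochberg adjustment ran over all 20800 genes that passed the filter, with a threshold of 0.05. Changes beyond 2-fold come from glmTreat with its log2 threshold at 1. Each standard error is the fitted log2 change over the square root of its F statistic. The fitting steps were tested on simulated data in which 200 genes changed, in both directions. Far more genes were called in the real data, so that test cannot show whether the scaling between the ages is right. Ratios of subunits were taken on log2(RPKM + 0.1) and compared with SciPy 1.17.1 by exact permutation of libraries, two-sided. Other settings tried were total-count, upper-quartile and RLE scaling, DESeq2 1.42.0, no filter or a mean of at least 1 CPM, limma 3.58.1 on log2 RPKM plus 0.5 or 0.1, females only, a replicate block and each library left out.

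Positions and exon overlaps come from GENCODE M21 (GRCm38), which held all 35 members. Transcript likeness comes from BLAST 2.17.0 with at least 90% identity over at least 100 bases. Promoter sequences are those of RefSeq on GRCm38.p6. All 35 members are named. Of each other gene list, the called gene with the largest rise and the one with the largest fall were named where the mean reached 1 CPM. The members, the lists and the alternatives were chosen with earlier results of these data known.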

Additional observations from a re-analysis of the deposited data

Results flagged for a closer look

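Ifngr2 at E14.5 was flagged because replicate 3, at 53.9 CPM, stood apart from the other embryos at 46.2 to 47.1 CPM. It was the 1 gene so marked among the 35 checked in the 4 embryonic libraries, where chance alone marks about 1 in 20. Without that replicate Ifngr2 still fell in adults.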

How the results depend on the processing

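Under 17 other settings, 29 of 35 members kept their direction and their side of the threshold in each setting they could be tested in. Left out one at a time, no library changed the 28 rises and 6 falls, while the rises beyond 2-fold were 19 to 21 and the falls beyond 2-fold 1 to 2. That last count was 1 rather than 2 with RLE scaling, with a mean of at least 1 CPM, with females only and with the replicate block, where the 2-fold call of Ifnar1 was lost. The replicate numbers of the ages were not a pairing (correlations of same-numbered libraries 0.0066, -0.028 and 0.019), and with the replicate block 28 members rose and 6 fell. The rises numbered 22 of 29 tested with a mean of at least 1 CPM, 27 with upper-quartile scaling, and 24, with 7 falls, with total-count scaling and with limma at either added value. Beyond 2-fold the rises numbered 15 of 29 with a mean of at least 1 CPM, 19 with upper-quartile scaling and 16 with total-count scaling. Over all genes the median log2 change was -0.08 in the reported fit, -0.49 with total-count and -0.20 with upper-quartile scaling, and the share of calls that were rises went from 48.3% to 37.1% with total-count scaling and to 37.0% and 36.9% with limma. Stat2 reversed to -0.056 with total-count scaling, -0.051 with limma on RPKM plus 0.5 and -0.054 with RPKM plus 0.1; the cause was not tested. Tapbp, Ifngr1, Ifit2 and Isg15 lost their calls in 1 or more of these settings, and Bst2 was called lower at -0.59, -0.47 and -0.54. All 5 subunit ratios kept their direction in every setting run. Depth limits the embryonic values of Ifit1, Psmb9, Psmb8, Usp18, Ifit3 and Rsad2, with 13 to 52 counts over 4 libraries.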
